A study of Mus musculus with 36 samples.

Results

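The question here is whether the HFLF diet group differs from the LF diet group in the same way in liver and in epididymal white adipose tissue (eWAT). For each microRNA (miRNA) the difference of HFLF from LF in eWAT was subtracted from the difference of HFLF from LF in liver, on the log2 scale, and this difference of differences is called the interaction. A negative interaction means that HFLF over LF was lower in liver than in eWAT. The libraries in the fit were 6 of liver HFLF, 5 of liver LF, 6 of eWAT HFLF and 4 of eWAT LF, 21 of the 36 of the series. The other libraries were 3 LF libraries and the whole HF diet group of both tissues.

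All mice were wild-type C57BL/6 males of an F1 generation, 24 weeks old, on chow to 6 weeks of age and then on a specific diet for 18 weeks. The diet labels read LFD, HFD and HFLFD, while the treatment protocol names LFD for every sample. The labels therefore leave unsaid whether a diet group names what a mouse ate or what its father ate. They also do not say that replicates are separate mice, so p-values measure only the spread between these samples, which may be technical.

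The libraries were chosen by measured values. Replicates 1 and 4 of eWAT LF were left out for high counts of miR-200 miRNAs, markers of epithelial cells, and their miR-200 sums were 15801 and 20633 CPM, that is, read counts scaled to the total of the library. The kept eWAT libraries nearest to them were HFLF 2 at 166.1 CPM among HFLF and LF 6 at 287.3 CPM among LF. Replicate 4 of liver LF was also outside the fit, and it held 316 detected miRNAs against 544 to 633 in liver HFLF and 563 to 624 in the kept liver LF libraries. These values are given as a description, with no test. Where the interaction of a named miRNA turned or moved by over 1.5 times when all 3 left-out libraries returned, that value is given too.

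A miRNA is a short RNA that guides Argonaute proteins to messenger RNAs, mostly by pairing of bases 2 to 8, its seed. Many miRNA genes sit in clusters that are transcribed as one precursor, so that neighbours often share a tissue pattern. The results turned on 3 such groups and on the let-7 family, which is known for its part in glucose metabolism and insulin signalling in mice and is named in the title of the series. The let-7e gene lies in a cluster with miR-99b and miR-125a. The imprinted Dlk1-Dio3 domain carries one of the largest miRNA clusters of the mouse, expressed from the maternal chromosome. A rapidly evolving cluster on the X chromosome is known for expression in mouse testis.

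The first set of sequences shows the cluster on chromosome 17 and miR-10b, which had the smallest interaction p of all named miRNAs, beside the nearest relatives of let-7e and miR-10b. Sequences are from RefSeq for build GRCm38.p6, written 5′ to 3′ with the seed in capitals. Positions in a sequence are counted from 1 at the 5′ end.
miR-99b-5p: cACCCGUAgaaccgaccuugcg
let-7e-5p: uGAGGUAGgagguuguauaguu
let-7a-5p: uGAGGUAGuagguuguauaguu
miR-125a-5p: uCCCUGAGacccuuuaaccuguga
miR-10b-5p: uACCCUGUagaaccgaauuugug
miR-10a-5p: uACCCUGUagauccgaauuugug

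The 3 genes of the cluster lie within 686 bp on the plus strand at chr17:17830194-17830879. The mature miR-99b-5p and the let-7e hairpin are in introns of Spaca6 and the miR-125a hairpin overlaps an exon of Spaca6. The miR-10b hairpin is at chr2:74726070-74726137 on the plus strand, within introns of Hoxd3 and Hoxd4, and that of miR-10a is at chr11:96317165-96317274. From let-7e-5p to let-7a-5p the only base difference is G9U, and from miR-10b-5p to miR-10a-5p it is A12U. No source used here gives how reads that match both members of such a pair were assigned.

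The second set shows the Dlk1-Dio3 miRNAs with the smallest interaction p among those with more than 3 counts in every group. They lie on the plus strand of chromosome 12, and no seed is shared between them.
miR-434-5p: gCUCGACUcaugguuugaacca
miR-668-3p: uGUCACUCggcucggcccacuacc
miR-300-3p: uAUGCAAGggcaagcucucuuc
miR-433-3p: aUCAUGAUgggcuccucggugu
miR-543-3p: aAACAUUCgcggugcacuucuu
miR-379-5p: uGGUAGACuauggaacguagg
miR-411-5p: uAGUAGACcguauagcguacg
miR-329-3p: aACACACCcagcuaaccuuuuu

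The hairpins of miR-433 at chr12:109591715-109591838 and miR-434 at chr12:109594506-109594599 overlap an exon of Rtl1 on the opposite strand. The hairpin of miR-668 at chr12:109734732-109734797 is in an exon of the noncoding RNA Mirg. Those of miR-379, miR-411, miR-329, miR-543 and miR-300 lie between 109709060 and 109724391 with no annotated host gene.

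The third set shows the X-linked miRNAs among the 12 positive interactions with the smallest p, and miR-1247, which lies in the Dlk1-Dio3 region but showed the opposite direction to the set above. The names miR-465a-3p, miR-465b-3p and miR-465c-3p stand for 1 sequence with the same counts and are given here as 1 measurement.
miR-465a-3p: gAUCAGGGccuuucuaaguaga
miR-741-3p: uGAGAGAUgccauucuauguaga
miR-470-5p: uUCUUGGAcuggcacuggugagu
miR-1247-5p: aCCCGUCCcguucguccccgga

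The X-linked hairpins are on the minus strand with no annotated host gene, miR-741 at chrX:66796805-66796875, miR-470 at chrX:66813951-66814025 and miR-465a at chrX:66839052-66839125. The miR-1247 hairpin is on the minus strand at chr12:110278048-110278129, in an exon of the noncoding RNA Dio3os.

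Library totals ran from 9198584 to 18152684 counts in liver HFLF, from 7866583 to 15608292 in liver LF, from 13103448 to 17714156 in eWAT HFLF and from 11512416 to 15090599 in eWAT LF. The tissues matched their labels. The hepatocyte miRNA miR-122-5p took 45.6% to 55.4% of counts in liver HFLF and 47.2% to 53.7% in liver LF, against at most 0.309% in any eWAT library of the fit, and the adipose-rich miR-143-3p took 15.8% to 19.98% in eWAT HFLF and 12.9% to 21.1% in eWAT LF. Levels below are CPM scaled by trimmed mean of M values (TMM) over the 21 libraries unless called plain CPM, which use library totals only. Scaled liver CPM exceed the share of counts, since the TMM factors were 0.623 to 0.81 in liver HFLF, 0.599 to 0.685 in liver LF, 1.4 to 1.59 in eWAT HFLF and 1.5 to 1.7 in eWAT LF.

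Of 665 miRNAs tested, none passed an adjusted p of 0.05 for the interaction in edgeR's quasi-likelihood test with Benjamini-Hochberg adjustment (0%), and the smallest adjusted p was 0.242. At an unadjusted p under 0.05 there were 65 miRNAs (9.77%), 33 with a negative interaction (4.96%) and 32 with a positive one (4.81%). DESeq2 called 10 names on the same counts and limma-trend called 0, with 49 at an unadjusted p under 0.05. In liver alone HFLF against LF gave 0 calls (0%), with 80 miRNAs at an unadjusted p under 0.05 (12%), 53 of them lower in HFLF (7.97%) and 27 higher (4.06%). In eWAT alone it gave 3 calls (0.451%), all of them names of the miR-465 sequence, with 40 miRNAs at an unadjusted p under 0.05 (6.02%). With eWAT LF 1 and 4 in the fit the eWAT calls numbered 26. All values described in the following sections are therefore differences that did not pass the threshold for the interaction in edgeR.

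**Figure D1:**
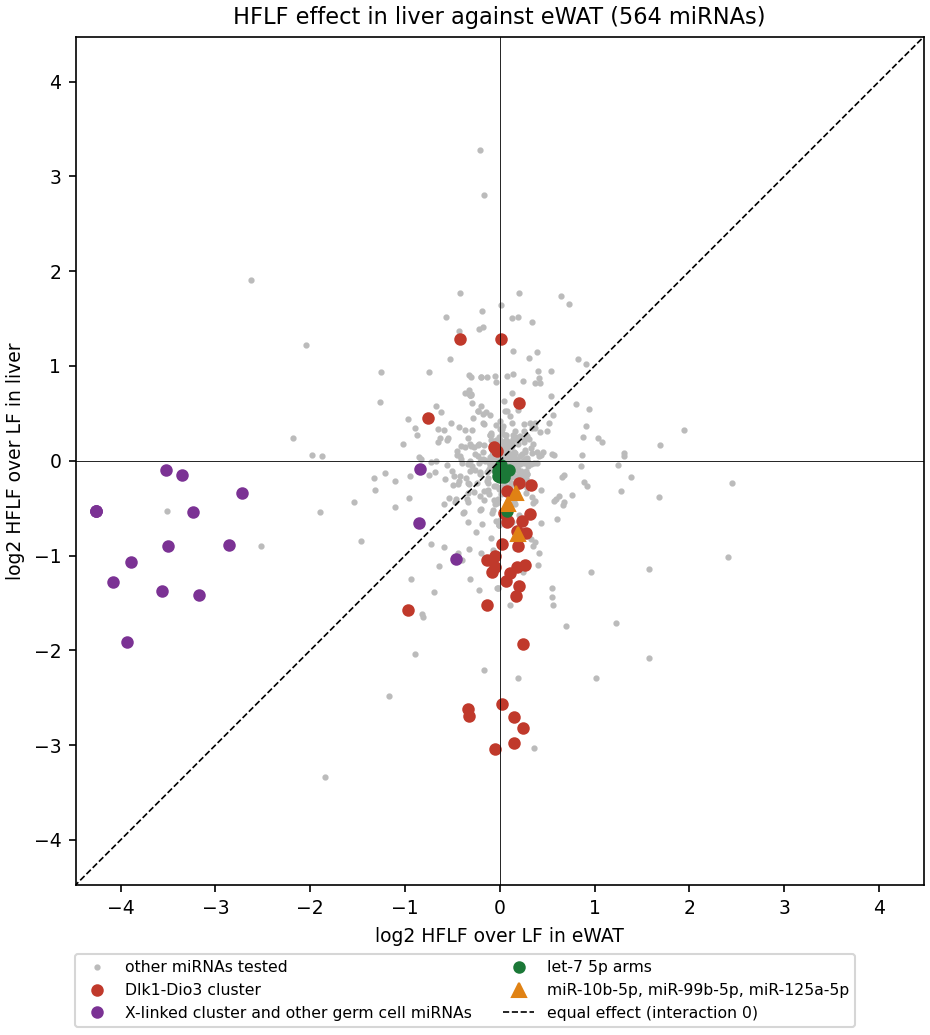
Fitted log2 HFLF over LF in liver (vertical axis) against eWAT (horizontal axis) for the 564 miRNAs with more than 3 counts in every group, 1 point per miRNA name, with lists in colour. Points under the dashed line of equal effect have a negative interaction; most Dlk1-Dio3 points lie low on the liver axis near 0 on the eWAT axis, and most germ cell points lie far left on the eWAT axis.

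Points in the plot of both effects spread mostly along one axis or the other. Over all 665 miRNAs the median interaction was -0.04 on the log2 scale, and 349 values were negative (52.5%). When libraries were scaled by their totals only, the median was 0.12, so values near 0 depend on the scaling.

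The 5p arms of the chromosome 17 cluster were lower in liver HFLF than in liver LF and at similar levels in both diet groups of eWAT. miR-10b-5p, abundant in eWAT and rare in liver, had the same pattern. In edgeR's fit of the 21 libraries none of these interactions or liver differences passed the adjusted threshold. In liver miR-10b-5p passed it in DESeq2 (adjusted p = 0.0383) and in limma-trend (adjusted p = 0.0446), and let-7e-5p, miR-99b-5p and miR-10b-5p passed it in edgeR (adjusted p = 0.0358 each) when a mean of at least 10 CPM was required. In eWAT the fitted HFLF over LF of these 4 miRNAs was between 0.08 and 0.19 (log2).

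miR-10b-5p ranged in liver HFLF from 11.9 to 25.7 CPM with a median of 14.6, against 41.1, 22.8, 21.9, 23.2 and 27.0 CPM in liver LF 1, 2, 3, 5 and 6. Only HFLF 1 at 25.7 CPM reached the LF values, and the other HFLF libraries were at 15.7 CPM or below. In eWAT the level was 18118 to 27252 CPM with a median of 22808 in HFLF, against 18981, 16482, 19685 and 24253 CPM in LF 2, 3, 5 and 6, and the groups overlapped. The liver level was 0.0711% of the eWAT level in HFLF and 0.137% in LF. The interaction was -0.96 ± 0.26 (log2 ± SE; edgeR's quasi-likelihood test, adjusted p = 0.242), made of -0.77 ± 0.18 in liver (adjusted p = 0.0632) and 0.19 ± 0.18 in eWAT. With 1 library left out in turn it ran from -1.14 without liver HFLF 1 to -0.76 without liver LF 1, the highest LF library. Only the fit without liver HFLF 1 passed the threshold (adjusted p = 0.0191 in edgeR). With the 3 left-out libraries the interaction was -0.43.

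Other miRNAs rich in eWAT were read beside it in liver. Of the 8 miRNAs that had at least 100 CPM in eWAT HF libraries and at least 100 times their liver level, miR-10b-5p and miR-1a-3p made up nearly all liver counts. miR-1a-3p marks striated muscle and was at 8.84 to 33.1 CPM in liver HFLF, against 24.5, 53.4, 24.4, 62.8 and 19.98 CPM in liver LF 1, 2, 3, 5 and 6, so the groups overlapped. The others had few or no liver counts: miR-196a-5p had 0 in HFLF and 26 in LF over all libraries of the group, miR-504-5p 11 and 11, miR-615-3p 9 and 0, and each arm of miR-708 had 0 and 10, while miR-10b-3p had 0 in both groups. The part of these miRNAs in the result was not tested. In bulk tissue fewer cells of a type and less RNA per cell cannot be told apart. Its relative miR-10a-5p was abundant in both tissues, at 7079 ± 1231 CPM in liver HFLF and 7511 ± 488.2 CPM in liver LF (mean ± SD, n = 6 and 5), and its interaction was -0.27 ± 0.18.

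miR-99b-5p ranged in liver HFLF from 974 to 1583 CPM, against 1463, 1399, 1424, 1869 and 1383 CPM in liver LF 1, 2, 3, 5 and 6. Only HFLF 5 at 1583 CPM was above the lowest LF library. In eWAT the level was 2941 to 3067 CPM in HFLF, against 2634, 2270, 2563 and 3173 CPM in LF, and the groups overlapped. The interaction was -0.51 ± 0.17 (log2 ± SE, adjusted p = 0.359 in edgeR), and with the 3 left-out libraries it was -0.22.

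let-7e-5p, the let-7 member of the cluster, ranged in liver HFLF from 1114 to 2415 CPM with a median of 1652, against 1639, 2669, 2884, 2840 and 2120 CPM in liver LF 1, 2, 3, 5 and 6. The groups overlapped through LF 1, the lowest LF library, and HFLF 5, the highest HFLF library. In eWAT it was at 2895 to 3806 CPM in HFLF, against 3274, 2889, 3320 and 2674 CPM in LF. The interaction was -0.61 ± 0.23 (adjusted p = 0.436 in edgeR) and with the 3 left-out libraries -0.62. miR-125a-5p, a miRNA with a role in blood and immune cells, had the same lowest and highest HFLF libraries in liver. Its liver HFLF range was 4639 to 10559 CPM, from HFLF 2 to HFLF 5, against 6669, 9940, 11568, 13041 and 8056 CPM in liver LF. Its interaction was -0.54 ± 0.25 (adjusted p = 0.485 in edgeR), and with the 3 left-out libraries it was -0.26.

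The liver held, as a share of the eWAT level, 39.8% of miR-99b-5p in HFLF and 56.7% in LF. For let-7e-5p the shares were 52.3% in HFLF and 80.0% in LF, and for miR-125a-5p 60.3% in HFLF and 87.5% in LF. The 8 eWAT-rich miRNAs together were at most 86.6 CPM in any liver library of the fit, and each of these 3 was at 974 CPM or more. Whether eWAT-rich miRNAs in liver had a part in the levels of these 3 was not tested. The 3p arms of the same hairpins, far less abundant, did not pass an unadjusted p of 0.05. Their interactions were -0.46 ± 0.27 for miR-99b-3p, 0.13 ± 0.45 for let-7e-3p and -0.19 ± 0.42 for miR-125a-3p.

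**Figure D2:**
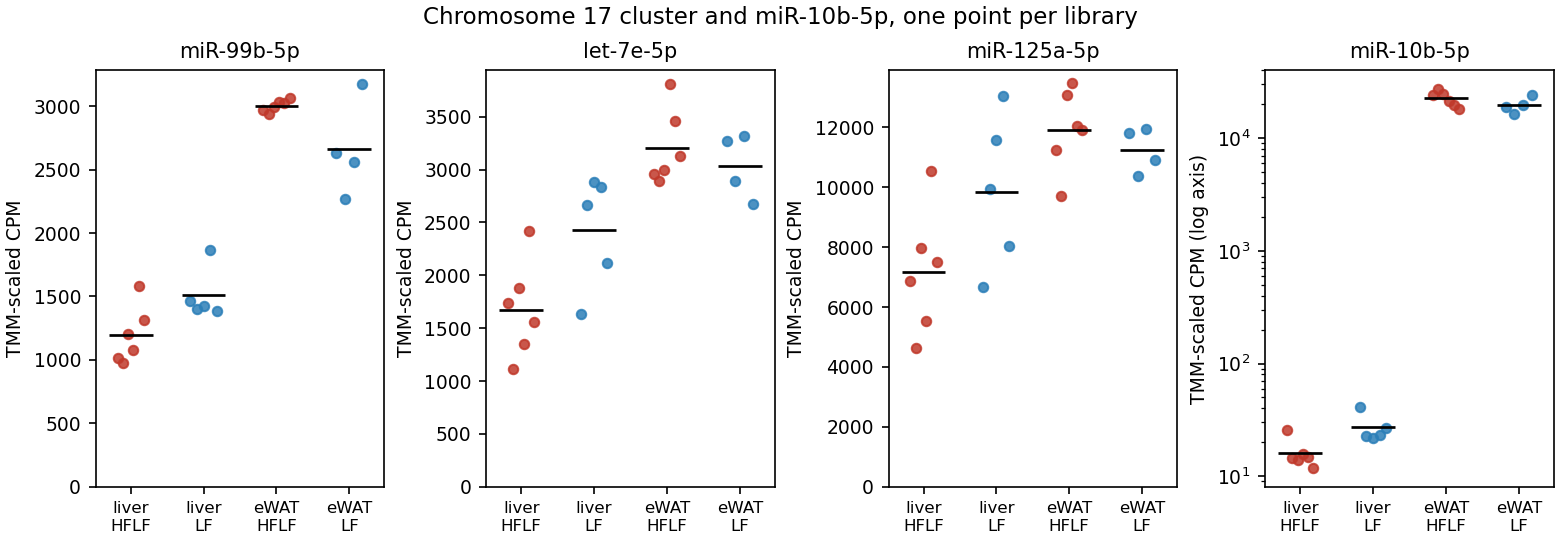
TMM-scaled CPM of miR-99b-5p, let-7e-5p, miR-125a-5p and miR-10b-5p in each of the 21 libraries (points) with group means (lines); the miR-10b-5p axis is logarithmic. In liver the HFLF points sit lower than the LF points with overlap, for miR-10b-5p 11.9 to 25.7 CPM against 21.9 to 41.1 CPM, while the eWAT groups overlap widely.

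Of the 564 miRNAs with more than 3 counts in every group, 38 belong to the list of Dlk1-Dio3 miRNAs. These miRNAs made up 8 of the 12 negative interactions with the smallest p among the 564. They were lower in HFLF in liver, where they are rare, and at like levels in both diet groups of eWAT, where they are common. Of the 58 names in the list 50 were tested, and 38 of these had more than 3 counts in every group. The list leaves out miR-1247-5p of the same region, whose interaction was positive at 1.80 ± 0.64, so the counts below do not include it. Over the 50 tested, 37 interactions were negative and 13 positive, beside 52.5% negative over all miRNAs, with a median of -0.91. At an unadjusted p under 0.05 the list held 12 negative values, beside 4.96% over all miRNAs, and 2 positive. Among the 38 above the floor of 3 counts, 32 were negative, 10 of them at an unadjusted p under 0.05, and no positive value reached it, beside 2.48% negative and 3.37% positive over all 564 such miRNAs. In liver 17 of the 38 were lower in HFLF at an unadjusted p under 0.05, beside 6.56% of the 564. The median effect of these 38 was -1.03 in liver and 0.075 in eWAT. In eWAT none was lower in HFLF at that p (4.26% of the 564). Over the 50 tested the medians were -0.82 in liver and 0.075 in eWAT. The 50 include names with 3 counts or fewer in a group, whose folds rest on few counts. In liver no miRNA of the list passed the adjusted threshold in edgeR's main fit. Of the 8 shown above, DESeq2 called miR-434-5p, miR-668-3p, miR-433-3p, miR-300-3p and miR-543-3p in liver, and limma-trend miR-668-3p and miR-300-3p. When a mean of at least 10 CPM was required, edgeR called miR-434-5p and miR-433-3p in liver.

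Summed over the list, the level was 56.6, 148.8, 133.7, 71.2, 73.2 and 72.0 CPM in liver HFLF 1 to 6, against 279.4, 140.7, 247.6, 109.7 and 116.3 CPM in liver LF 1, 2, 3, 5 and 6. HFLF 2 and 3 lay inside the LF range and the other 4 HFLF libraries lay below it. In eWAT the sum was 1571 ± 222 CPM in HFLF and 1431 ± 177 CPM in LF (mean ± SD, n = 6 and 4). In plain CPM the liver sum was 39.5 to 120 in HFLF with a median of 48.7, 51.8 to 90.2 in 5 HF libraries with a median of 55.4 (HF 6, with 368 detected miRNAs, was left out), and 73.9 to 179 in LF with a median of 95.7. miR-10b-5p and miR-1a-3p, given above, also had lower means in liver HFLF than in liver LF, and their part in the result was not tested.

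miR-434-5p, from the strand opposite Rtl1, had 0 to 1.01 CPM in liver HFLF with a median of 0.292, against 4.22, 1.90, 0, 5.95 and 1.72 CPM in liver LF. The groups overlapped only because LF 3 held none of it. In counts these were 0, 0, 8, 1, 4 and 8 in HFLF, against 36, 11, 0, 53 and 17 in LF, so counting error is large. In eWAT it was at 25.0 ± 5.57 CPM in HFLF and 21.1 ± 5.69 CPM in LF (mean ± SD, n = 6 and 4). The interaction was -3.06 ± 0.87 (adjusted p = 0.242 in edgeR). The liver level was 1.54% of that of eWAT in HFLF and 13.1% in LF. The 3p arm of the same hairpin was at 8.46 CPM in liver HFLF and 10.5 CPM in liver LF, and its interaction was -0.39 ± 0.24.

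miR-668-3p, from Mirg, had 0, 1, 3, 0, 0 and 7 counts in liver HFLF, against 10, 8, 10, 11 and 10 counts in liver LF. In CPM all liver HFLF libraries, at 0 to 0.620, were below all liver LF libraries, at 1.01 to 2.12; 2 of the 665 miRNAs did this (0.301%). The interaction was -2.86 ± 0.84 (adjusted p = 0.242 in edgeR). miR-300-3p had 6 counts in liver HFLF 4 and 0 in each other liver HFLF library, against 14, 10, 3, 3 and 5 counts in liver LF. Its interaction was -3.13 ± 0.99 (adjusted p = 0.322 in edgeR). Liver HFLF 4 held all 6 counts of that group. Without that library edgeR called the interaction, but the group was then at 0 counts, so no fold is given. miR-433-3p had 0, 4, 0, 0, 3 and 0 counts in liver HFLF, against 0, 6, 4, 13 and 25 in liver LF, with an interaction of -2.99 ± 0.95.

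The better counted miR-379-5p and miR-411-5p of the list showed smaller values in the same direction. miR-379-5p, the first miRNA of the large block between 109709060 and 109743795, had 6.06 to 33.0 CPM in liver HFLF with a median of 16.1, against 68.7, 25.3, 45.4, 18.1 and 17.5 CPM in liver LF. HFLF 2 and 4 lay inside the LF range and the other 4 HFLF libraries below it. In eWAT it was at 335.7 ± 50.1 CPM in HFLF and 295.2 ± 64.8 CPM in LF. The interaction was -1.31 ± 0.53 (adjusted p = 0.444 in edgeR). That of miR-411-5p was -1.05 ± 0.44, and -0.68 with the 3 left-out libraries, with 8.57 ± 4.41 CPM in liver HFLF and 14.7 ± 7.04 CPM in liver LF. miR-543-3p had -2.17 ± 0.77, with means of 1.60 CPM in liver HFLF and 6.10 CPM in liver LF. miR-329-3p had few counts, 7 over the liver HFLF libraries and 35 over the liver LF libraries. Its interaction was -2.59 ± 1.16, and -1.58 without liver LF 1.

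How many of the list, names with few counts included, fell under an unadjusted p of 0.05 depended on single libraries. The count of 12 negative values was 20 without liver HFLF 3, 18 without liver HFLF 2, 7 without eWAT LF 2 and 8 without eWAT LF 3. The median ran from -1.07 to -0.62 over all libraries left out in turn, with 35 to 39 of the 50 negative. With the 3 left-out libraries the median was -0.62, with 35 negative.

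**Figure D3:**
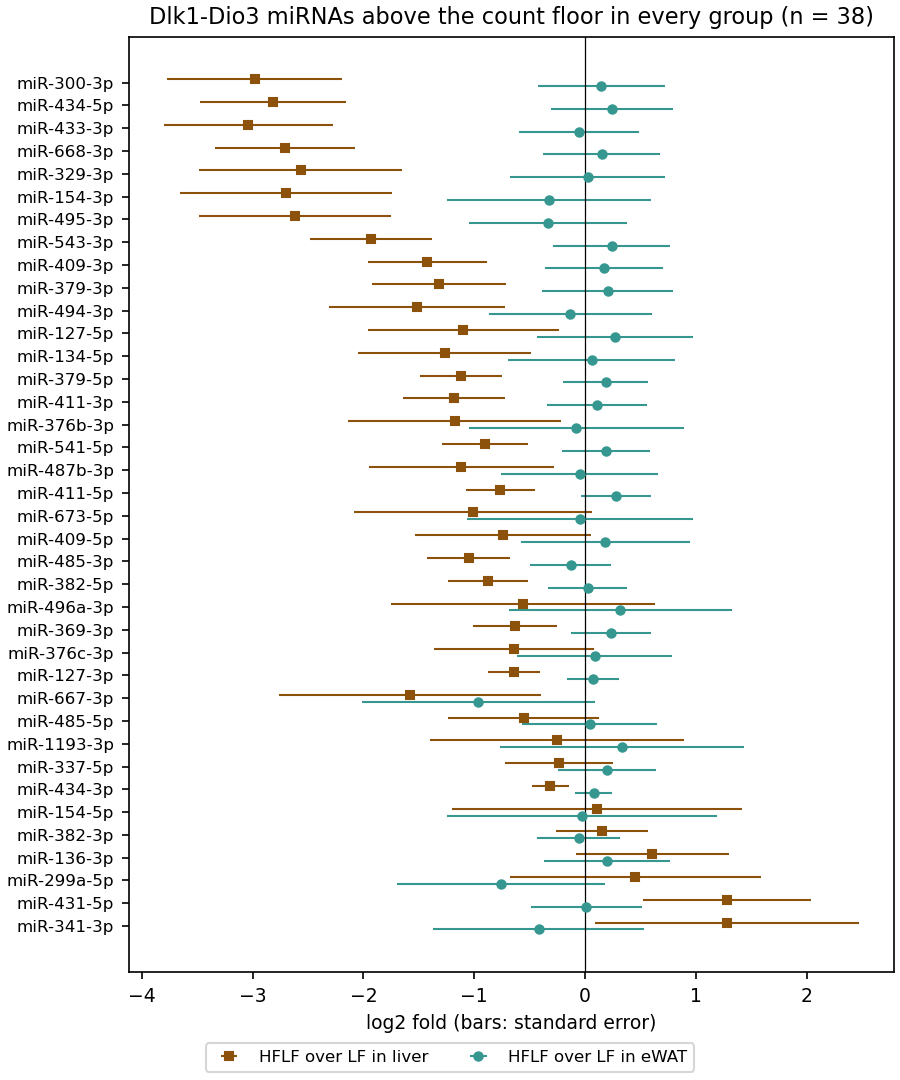
Fitted log2 HFLF over LF in liver (squares) and eWAT (circles) with standard error bars for the 38 Dlk1-Dio3 miRNAs with more than 3 counts in every group, ordered by interaction from the most negative at the top. In 32 of them the liver value lies below the eWAT value, and the eWAT values gather near 0.

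The positive interaction with the smallest p was that of the X-linked miR-465a-3p, and X-linked neighbours had the same sign. These miRNAs had lower means in HFLF than in LF in both tissues, with the larger difference in eWAT, so the positive sign does not come from higher liver values. In the list of miRNAs known from germ cells and epididymis, 19 of 20 were tested, with 17 positive and 2 negative interactions (47.5% positive over all miRNAs), a median of 2.603 and 7 positive values at an unadjusted p under 0.05 (4.81% over all). In eWAT 13 of the 19 were lower in HFLF at an unadjusted p under 0.05 (4.21% over all), with a median of -3.36, and in liver 18 of the 19 values were negative with a median of -0.65. Of the 17 with more than 3 counts in every group these were also 13, beside 4.26% of the 564. All these counts and medians take the 3 names of the miR-465 sequence as 3 members, though they are 1 measurement.

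miR-465a-3p had 0, 0.0979, 0.265, 1.19, 0.183 and 0.672 CPM in eWAT HFLF 1 to 6, against 0.722, 8.71, 10.6 and 11.7 CPM in eWAT LF 2, 3, 5 and 6. LF 2 lay among the HFLF values and the other 3 LF libraries were at least 7 times as high as any HFLF library. In liver it was at 2.97 ± 0.76 CPM in HFLF and 4.25 ± 2.68 CPM in LF (mean ± SD, n = 6 and 5). The eWAT difference of -4.26 ± 0.80 was called (adjusted p = 0.00362 in edgeR), the liver difference was -0.53 ± 0.71, and the interaction was 3.73 ± 1.06 (adjusted p = 0.242). With eWAT LF 1 and 4 in the fit the interaction was 4.81 with an adjusted p of 0.082.

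miR-741-3p had at most 1.17 CPM in eWAT HFLF, against 1.61, 4.55, 6.96 and 5.01 CPM in eWAT LF, so that all HFLF libraries were below all LF libraries (0.301% over all miRNAs). Its interaction was 3.42 ± 1.295 (adjusted p = 0.426 in edgeR) and its eWAT difference -3.52 ± 0.96 (adjusted p = 0.0983 in edgeR). miR-470-5p had 0 to 1.48 CPM in eWAT HFLF, against 0.425, 11.2, 9.42 and 7.49 CPM in eWAT LF, with LF 2 again among the HFLF values. Its interaction was 2.98 ± 1.27. The values of miR-881-3p, miR-743a-3p and miR-743b-3p were 2.83 ± 1.27, 2.80 ± 1.41 and 2.03 ± 1.34, and in eWAT all 3 lay between -3.89 and -4.08. In liver miR-881-3p averaged 1.81 CPM in HFLF and 3.79 CPM in LF, miR-743a-3p 1.24 CPM in HFLF and 3.01 CPM in LF, and miR-743b-3p 0.712 CPM in HFLF and 2.68 CPM in LF.

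These levels varied widely between libraries of one group. Over 12 X-linked names the plain CPM sum in eWAT was 0.534 to 16.5 in HFLF with a median of 6.71, 1.10 to 383 in HF with a median of 34.8, and 7.41, 132, 122 and 132 in the kept LF libraries. In the left-out LF libraries it was 20.6 in LF 1 and 871 in LF 4. The whole germ cell and epididymis list summed to 20.1 to 57.4 CPM in eWAT HFLF, against 30.4, 157, 144 and 182 CPM in eWAT LF. In liver its sum was 24.4 to 52.6 CPM in HFLF and 32.8 to 99.2 CPM in LF. The sums of the whole list count the miR-465 sequence under each of its 3 names. The epididymal fat pad lies on the epididymis, and most X-linked names belong to the germ cell and epididymis list. The part of epididymal tissue in the result was not tested.

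The epithelial list gave 9 positive interactions of 10 (47.5% positive over all miRNAs), with a median of 0.58. Its miR-200 members chose the libraries, so its values are a description and give no separate support. Without eWAT LF 6, which held the highest miR-200 sum of the kept eWAT libraries, the median was 0.033 with 3 negative. With the 3 left-out libraries the median was 5.68. Its sum in the kept eWAT libraries was 51.3 to 131 CPM in HFLF and 81.2 to 224 CPM in LF. miR-182-5p, a miRNA of sensory and epithelial cells, had 7.95 to 15.1 CPM in eWAT HFLF, against 27.7, 31.3, 10.04 and 20.6 CPM in eWAT LF, and an interaction of 1.24 ± 0.51. miR-375-3p, known from pancreatic islets and epithelia, had 0.308 to 12.6 CPM in eWAT HFLF, against 4.41, 31.5, 10.6 and 24.7 CPM in eWAT LF, and an interaction of 2.42 ± 0.99. With eWAT LF 1 and 4 in the fit these values were 4.996 and 6.99, and with all 3 left-out libraries they were 4.90 and 7.204.

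**Figure D4:**
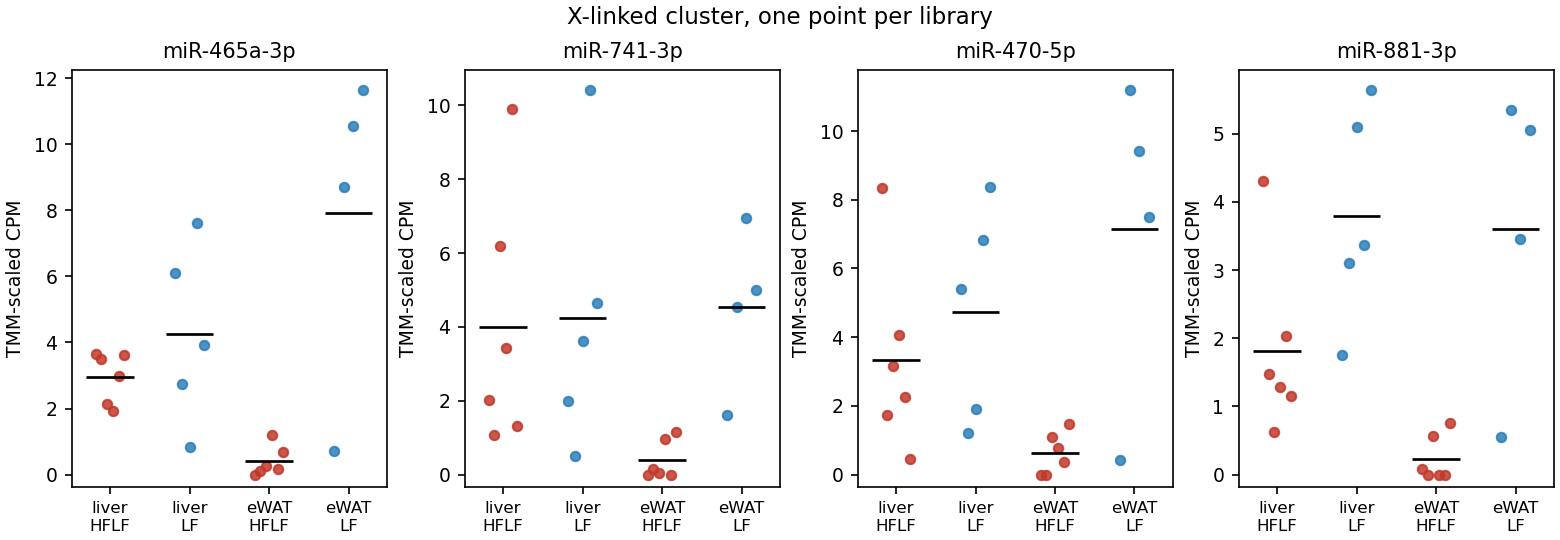
TMM-scaled CPM of X-linked miRNAs by library and group (points) with group means (lines). In eWAT 3 of the 4 LF libraries stand above the HFLF libraries, for miR-465a-3p 8.71 to 11.7 CPM against at most 1.19 CPM, while LF 2 at 0.722 CPM lies among them, and the liver groups overlap.

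Of the other miRNAs with a positive interaction, miR-1247-5p and miR-17-5p had the larger part of it in liver. miR-1247-5p, transcribed with the noncoding RNA beside Dio3, had 44.1, 17.6, 5.56, 48.5, 41.5 and 27.7 CPM in liver HFLF 1 to 6, against 9.73, 5.17, 9.77, 9.98 and 24.5 CPM in liver LF. 4 HFLF libraries were above all LF libraries and HFLF 3 was among the lowest. In eWAT it was at 7.47 to 24.7 CPM in HFLF, against 16.3, 25.5, 11.4 and 19.3 CPM in LF. The interaction was 1.80 ± 0.64 (adjusted p = 0.381 in edgeR), made of 1.37 ± 0.45 in liver and -0.43 ± 0.46 in eWAT. With the 3 left-out libraries it was 2.99.

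miR-17-5p, of the growth-associated miR-17-92 cluster, had 72.0 to 122 CPM in liver HFLF with a median of 83.0, against 81.1, 64.3, 54.6, 69.3 and 72.9 CPM in liver LF. 4 LF libraries were at or below 72.9 CPM, where the lowest HFLF libraries began. Its interaction was 0.56 ± 0.23 (adjusted p = 0.444 in edgeR), and of the 11 members of the miR-17-92 and miR-106b-25 clusters 10 were positive, with a median of 0.09 and 1 at an unadjusted p under 0.05, beside 47.5% positive and 4.81% at that p over all miRNAs.

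The next 3 had the larger part of their interaction in eWAT. miR-12191-3p had 11.95 to 26.6 CPM in liver HFLF and 8.07 to 19.6 CPM in liver LF, and 0.839 to 1.70 CPM in eWAT HFLF and 1.32 to 3.70 CPM in eWAT LF. Its interaction of 1.25 ± 0.50 was made of 0.58 in liver and -0.67 in eWAT. miR-211-5p, from an intron of Trpm1, averaged 1.38 CPM in liver HFLF and 0.366 CPM in liver LF, and 0.127 CPM in eWAT HFLF and 0.831 CPM in eWAT LF. Its interaction of 4.54 ± 1.89, made of 1.91 in liver and -2.62 in eWAT, rests on few counts. The value of miR-215-5p, 1.93 ± 0.78 with -1.87 of it in eWAT as HFLF over LF, rests on eWAT LF 3 at 100.4 CPM, beside 9.59, 11.1 and 7.98 CPM in the other LF libraries and 3.42 to 15.6 CPM in HFLF; without that library it was 0.19.

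The let-7 family was the most abundant family that both tissues share. Its 5p arms took 16.0% to 18.4% of counts in liver HFLF and 16.2% to 18.5% in liver LF, and 24.4% to 29.9% in eWAT HFLF and 23.2% to 30.1% in eWAT LF. All 9 family members, miR-98-5p included, carry the seed GAGGUAG shown in capitals above for let-7e and let-7a, and they differ from let-7e-5p by 1 to 5 bases.

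All 9 interactions were negative, with a median of -0.18 (52.5% negative over all miRNAs). let-7e-5p at -0.61 was the only one with an unadjusted p under 0.05. The other 8 lay between -0.21 for let-7a-5p and -0.06 for let-7g-5p, with standard errors of 0.14 to 0.20, so each was within about 1.5 standard errors of 0. When scaled by library totals only, 4 of the 9 turned positive, at 0.10 for let-7b-5p, 0.01 for let-7c-5p, 0.11 for let-7g-5p and 0.03 for let-7i-5p. With the 3 left-out libraries let-7g-5p was at 0.06 and let-7i-5p at 0.03, while let-7b-5p was at -0.48 and let-7c-5p at -0.27. The summed level was 250576 ± 26701 CPM in liver HFLF and 272083 ± 19317 CPM in liver LF, and 176976 ± 16358 CPM in eWAT HFLF and 172150 ± 11224 CPM in eWAT LF (mean ± SD, n = 6, 5, 6 and 4). Differences of this size are within the spread between libraries. Of the 12 arms on the other strand of these hairpins, 5 were positive and 7 negative, with a median of -0.25.

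**Figure D5:**
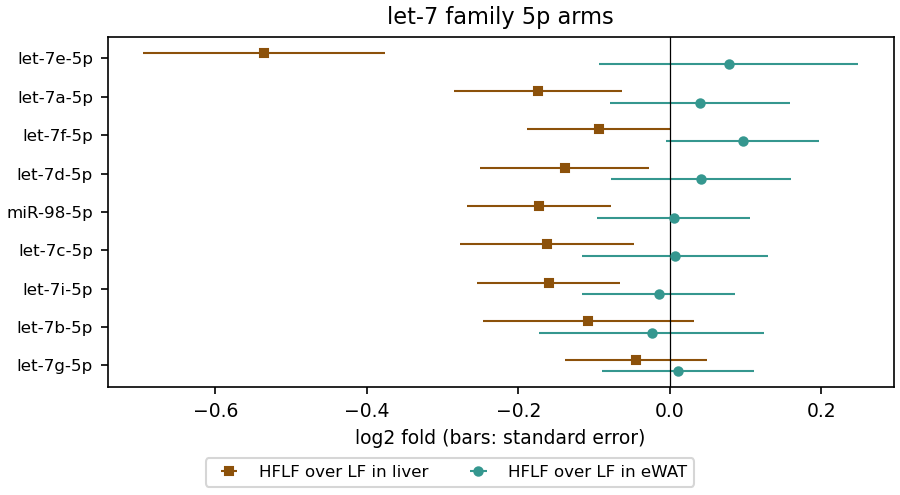
Fitted log2 HFLF over LF (points, with standard error bars) of the 9 let-7 5p arms in liver and in eWAT. let-7e-5p stands apart in liver at -0.54, while the other members lie between -0.17 and -0.04 in liver and near 0 in eWAT.

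Beside let-7, the most abundant miRNAs of the tissues had interactions within 1 standard error of 0. They were -0.43 ± 0.46 for miR-122-5p, -0.06 ± 0.23 for miR-21a-5p, a miRNA of injury and fibrosis, -0.14 ± 0.28 for miR-143-3p and -0.12 ± 0.17 for miR-26a-5p. With the 3 left-out libraries miR-122-5p was at -0.68, miR-21a-5p at 0.08 and miR-26a-5p at 0.06. miR-122-5p in eWAT, where it is foreign, ranged from 467 to 1943 CPM in HFLF and from 333 to 1340 CPM in LF. Its range in the eWAT groups overlapped.

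Among the immune and blood lists, 6 of 7 macrophage and granulocyte miRNAs had a positive interaction, beside 47.5% over all miRNAs, with a median of 0.42. Without eWAT LF 2 the median was 0.18, with 3 negative. The median effect in eWAT was -0.28, with all 7 negative, and that in liver was -0.003. miR-146a-5p, which dampens innate immune signalling, was at 482.9 ± 80.6 CPM in liver HFLF and 367.3 ± 54.0 CPM in liver LF, and at 411.1 ± 48.9 CPM in eWAT HFLF and 463.3 ± 190.9 CPM in eWAT LF, and its interaction was 0.57 ± 0.25 (adjusted p = 0.444 in edgeR). Of 7 erythroid miRNAs 6 were positive, with a median of 0.37 that was 0.14 without eWAT LF 6. The 7 include both arms of miR-144, so they are not 7 independent values. miR-144-3p, a marker of red cells, gave 0.79 ± 0.38 (adjusted p = 0.507 in edgeR), and 0.40 with the 3 left-out libraries. The 6 lymphocyte miRNAs divided evenly, with a median of -0.02, and miR-150-3p gave -0.93 ± 0.55. At most 1 value in each of these 3 lists had an unadjusted p under 0.05. The macrophage and granulocyte list summed to 785 to 1307 CPM in liver HFLF and 757 to 1240 CPM in liver LF, and to 1635 to 2911 CPM in eWAT HFLF and 2468 to 4272 CPM in eWAT LF. The erythroid list summed to 2583 to 4504 CPM in liver HFLF and 2204 to 3731 CPM in liver LF, with overlap in both tissues.

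Among tissue and stromal markers, the hepatocyte list had 8 positive and 5 negative values with a median of 0.04, and the adipocyte list, which holds miR-10b-5p, had 4 positive and 8 negative with a median of -0.17. Beside these counts and those below, 47.5% of interactions were positive and 52.5% negative over all miRNAs. All 6 miRNAs of fibroblasts, stellate cells and smooth muscle were negative, with a median of -0.22 and miR-199a-5p at -0.38 ± 0.35 (0.49 with the 3 left-out libraries). Among the 6 were both arms of miR-199a and both arms of miR-214, so they are not 6 independent values. Both endothelial miRNAs were also negative, with a median of -0.23 and miR-126a-5p at -0.24 ± 0.19. Neither list held a value at an unadjusted p under 0.05. Of 4 striated muscle miRNAs 2 were positive, with a median of -0.23 and miR-1a-3p at -0.78 ± 0.59 (-0.09 with the 3 left-out libraries). All 5 pancreas and endocrine miRNAs were positive, with a median of 1.01 and 2 at an unadjusted p under 0.05 (4.81% over all). With 1 library left out the median ran from 0.62, without eWAT LF 6, to 1.51, and with the 3 left-out libraries it was 5.86.

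Among metabolic miRNAs the list for insulin sensitivity and lipid metabolism had 5 positive and 7 negative values (47.5% positive over all miRNAs) and a median of -0.05. miR-107-3p, from an intron of Pank1 and known to lower insulin sensitivity in mice, was at 589.6 CPM in liver HFLF and 466.9 CPM in liver LF, with an interaction of 0.33 ± 0.17 (adjusted p = 0.514 in edgeR). The miR-378 family had 4 positive of 5 (median 0.11; miR-378a-3p 0.20 ± 0.21), the miR-29 family 3 of 7 (median -0.02; miR-29b-2-5p -0.77 ± 0.50) and the miR-30 family 8 of 11 (median 0.05; miR-30e-3p 0.32 ± 0.19). The miR-15 and miR-322 families had 4 positive of 10, with a median of -0.12 and miR-322-3p at -0.40 ± 0.21. Of the 80 names of the Sfmbt2 cluster, a large imprinted cluster best known from placenta, 28 were tested, with 13 positive and 15 negative, a median of -0.06 and miR-466f-3p at -2.14 ± 1.10. With the 3 left-out libraries miR-378a-3p was at 0.07, miR-29b-2-5p at -0.34, miR-30e-3p at 0.59 and miR-466f-3p at -1.21. None of these metabolic and cluster lists held a value at an unadjusted p under 0.05.

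Some of the names that DESeq2 called were absent from a group. miR-708-5p and miR-708-3p had 0 counts in all liver HFLF libraries and 10 counts each over the liver LF libraries, while over the eWAT LF libraries they had 24070 and 31924 counts. miR-137-3p had 0 counts in all eWAT HFLF libraries. No fold is given for them, since a group at 0 gives none of its own. The other DESeq2 calls were miR-300-3p, miR-433-3p, miR-434-5p, miR-668-3p and the 3 names of the miR-465 sequence.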

How the data were processed

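Small RNA libraries were made from 1 ug of total RNA with the NEXTFLEX Small RNA-seq v3 kit, per the labels' protocols. Per the submitters' processing notes, cutadapt and Bowtie were used with build GRCm38.p6; no source used here gives versions or settings. Raw read counts, as the authors deposited them, filled 2118 lines for 1966 mature names, 87 of them on several lines, and the line with the highest total was used. The authors' deposited log2 tables hold 171 miRNAs in 16 liver libraries and 180 in 18 eWAT libraries and entered no test. Columns C and R were read as LF and HFLF, and L and W as liver and eWAT.

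The counts of 21 libraries in 4 groups were fitted at once in R 4.3.3 with edgeR 4.0.16 (TMM, filterByExpr with minimum count 10 and total 15, robust quasi-likelihood F test, Benjamini-Hochberg over 665 miRNAs, adjusted p under 0.05). Standard errors are the log2 value over the root of F. The floor is 3 counts over a group. DESeq2 1.42.0 and limma 3.58.1 were alternatives, and the fit was tested on simulated data. Replicate libraries differed beyond counting error, with chi-square per degree of freedom of at least 79.9. Named miRNAs with over 3 counts in every group were the 12 of each sign with the smallest interaction p, to which the let-7 5p arms, the 5 most abundant of each tissue and the member of each list with the smallest p were added. The members and lists were chosen with earlier results of these data known. miRNAs at 0 in a group, other arms and relatives were named after their values were seen. Of the 49 named miRNAs 41 had a RefSeq sequence. Of all same-number pairs, 1 of 10 across tissues and 1 of 9 across diet groups correlated above 0.1. Tissues of 1 mouse need not correlate, so this cannot show whether a shared number pairs samples. The main fit did not pair them, and fits with a replicate block are given below.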

Additional observations from a re-analysis of the deposited data

Results flagged for a closer look

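In 188 groups of 4 to 6 libraries checked, 15 held a library far from the others of its group, where chance at 1 in 20 would give 9.4. In liver HFLF these were miR-10b-5p in HFLF 1 at 25.73 CPM (others 11.9 to 15.7), miR-300-3p in HFLF 4 at 0.6416 CPM (others 0), miR-543-3p in HFLF 2 at 4.835 CPM (others 0.107 to 1.48), let-7d-5p in HFLF 2 at 7122 CPM (others 9426 to 10791) and miR-122-5p in HFLF 2 at 563200 CPM (others 713031 to 793785). In the same group miR-199a-5p was at 68.98 CPM in HFLF 1 (others 205 to 276), miR-378a-3p at 3765 CPM in HFLF 6 (others 2885 to 3175) and miR-322-3p at 352.6 CPM in HFLF 6 (others 204 to 259). In liver LF they were miR-10b-5p in LF 1 at 41.13 CPM (others 21.9 to 27.0), miR-1247-5p in LF 6 at 24.52 CPM (others 5.17 to 9.98) and miR-99b-5p in LF 5 at 1869 CPM (others 1383 to 1463).

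In eWAT HFLF, miR-126a-5p was at 2852 CPM in HFLF 6 (others 2182 to 2415). In eWAT LF the same miRNA was at 2576 CPM in LF 6 (others 1809 to 1860), miR-215-5p at 100.4 CPM in LF 3 (others 7.98 to 11.1) and miR-433-3p at 23.34 CPM in LF 5 (others 14.5 to 15.6). The libraries outside the fit carried a further signal: the miR-200 sums of eWAT LF 1 and LF 4 were 15800.5 and 20633.3 plain CPM, beside 103.7 to 287.3 in the kept LF libraries.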

How the results depend on the processing

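Calls at an adjusted p under 0.05 moved with the settings. For the interaction, edgeR gave 0 calls, DESeq2 10 and the fit of all 36 libraries 13; with 1 library left out in turn there were 0 to 1 calls. For liver, edgeR gave 0 calls, DESeq2 18, limma-trend 3, a minimum of 10 CPM 5, the 20 libraries numbered in both tissues 1, and the fit without liver LF 1 and eWAT LF 3 together, an alternative chosen after seeing the data, 1; with 1 library left out there were 0 to 3. For eWAT, edgeR gave 3 calls, DESeq2 12, limma-trend 8, no filter 5, a minimum of 10 CPM 0, eWAT LF 1 and 4 returned 26, all 24 libraries 29 and all 36 libraries 30; with 1 library left out there were 3 to 9, with 9 without eWAT LF 2 and 5 without liver HFLF 1. The replicate block on number over all groups gave 0, 0 and 3 calls for interaction, liver and eWAT, and 44, 59 and 36 miRNAs at an unadjusted p under 0.05. The replicate block on diet group and number shared by the tissues gave 0 interaction calls and 29 such miRNAs.

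The 49 named miRNAs count the miR-465 sequence under 3 names, and some were not tested in every setting. Over 39 settings 40 of the 49 kept the sign of their interaction in each setting that tested them. With library totals only it turned to 0.10 for let-7b-5p, 0.00712 for let-7c-5p, 0.11 for let-7g-5p, 0.026 for let-7i-5p, 0.12 for miR-21a-5p, 0.015 for miR-143-3p and 0.053 for miR-26a-5p. With eWAT LF 1 and 4 it was 0.040 for let-7g-5p, 0.033 for miR-21a-5p and 0.36 for miR-199a-5p, and with liver LF 4 0.017 for miR-26a-5p. With all 24 libraries it was 0.059 for let-7g-5p, 0.025 for let-7i-5p, 0.082 for miR-21a-5p, 0.063 for miR-26a-5p and 0.49 for miR-199a-5p. With all 36 it was 0.011 for miR-21a-5p, 0.0052 for miR-26a-5p, 0.44 for miR-199a-5p and -0.0031 for miR-378a-3p. For miR-21a-5p it was 0.089 with the 20 libraries and 0.049 with the replicate block on diet group and number. With 1 library left out, let-7b-5p ran from -0.19 to 0.013, let-7g-5p from -0.12 to 0.039, miR-143-3p from -0.36 to 0.040 and miR-21a-5p from -0.19 to 0.089. The cause was not tested. Rare liver miRNAs with a few counts per library limit what these depths show.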
